A study of Bos taurus with 12 samples.

Results

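The ID genes and the BMP pathway genes BMP4, BMPR1A, BMPR2, SMAD6 and GREM1 were described in bovine skeletal myoblasts and in the myotubes formed from them. Members were the entries of the gene expression table with the symbols ID1, ID2, ID3, ID4, BMP4, BMPR1A, BMPR2, SMAD6 or GREM1, together with the m6A peaks assigned to these symbols. All 9 symbols were found, among 18436 genes in the table. The members were selected on their FPKM in GM and DM and on the peaks listed for them, so the differences below are a description, and no p-value is given for a member.

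The study asked how m6A, a methylation of adenosine in mRNA, differs between proliferating and differentiated muscle cells. The primary myoblasts were taken from the back muscle (longissimus dorsi) of Qinchuan cattle at birth. The GM group was kept in growth medium with 20% fetal bovine serum until 80% confluence, and the DM group was then held for 4 days in differentiation medium with 2% horse serum, on the same DMEM/F12 base with antibiotics. Each group had 3 input libraries of poly(A) RNA, which gave the mRNA levels, and 3 libraries made after immunoprecipitation (IP) with an m6A antibody. Neither group carried a genetic change. Medium, serum, cell density and time in culture differed together, so their parts cannot be told apart. The methods of the study describe cells from a newborn in the singular and do not tie the 3 samples of a group to separate animals, so the p-values below measure only the spread between these samples, which may be technical.

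ID proteins lack the basic region that binds DNA. They pair with E proteins, the partners that MYOD1 and the other myogenic factors need, and so keep these factors from DNA. BMP ligands bind a complex of type I receptors such as BMPR1A and type II receptors such as BMPR2, which phosphorylates SMAD1, SMAD5 and SMAD9, and ID1, ID2, ID3 and SMAD6 are well-known targets of these SMADs. In muscle, BMP signalling and ID proteins are known to hold precursor cells in a proliferating, undifferentiated state.

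The cultures carried the markers of the myogenic lineage. PAX7 was at 1.08 FPKM (fragments per kilobase of exon, scaled to the mapped fragments of the library) in GM and 0.0624 in DM. MYH3 was at 273.0 and 659.3, and CKM at 10.2 and 42.5. In each case the groups did not overlap, which also held for 54.1% of all tested genes. MYMK, at 41.1 and 47.3 FPKM, overlapped between the groups, and DES was at 453.5 and 488.5. By the rule given below, 2 of the 8 muscle markers were called higher in DM, 3 lower, and 3 were not called. MYOG, a gene of differentiating myocytes, was already at 196.7 FPKM in GM. All 5 fibroblast markers were also present, with a summed level of 7843 to 8075 FPKM in GM and 8636 to 8893 in DM and none of the 5 called changed. Most of this sum was COL1A1, with means of 6791 and 7420 FPKM. For COL1A1, DCN and PDGFRA every DM library lay above every GM library, beside 21.1% of all tested genes, while LUM and THY1 overlapped. The summed adipocyte, endothelial and leukocyte markers stayed at or below 2.01 FPKM in every library. The endothelial marker KDR and the leukocyte marker PTPRC had no entry, so these sums leave them out. The part of these other cells in the results was not tested. FPKM summed over all genes were 415740 to 434458 in GM and 386436 to 390827 in DM. In bulk RNA, fewer cells of a type and less RNA per cell cannot be told apart.

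ID1, ID2 and ID3 were clearly lower in myotubes, ID4 was lower by less, the ligand BMP4 was higher, the antagonist GREM1 and both receptors differed little, and the inhibitory SMAD6 was lower. A gene was called when the Benjamini-Hochberg adjusted p of limma was under 0.05 over the 12302 genes averaging 0.5 FPKM or more and the fold change was over 1.5 on the log2(FPKM + 1) scale. By that rule 5 of the 9 members were called, 1 higher and 4 lower in DM, beside 11.8% of all tested genes (4.89% higher and 6.88% lower). Every member passed the filter on low values. The DM libraries lay wholly apart from the GM libraries for 8 of the 9 members, above for 3 of them (21.1% of all tested genes) and below for 5 (33.0%), beside 54.1% in either direction, and nothing is read from either count since these levels were used in choosing the members.

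**Figure D1:**
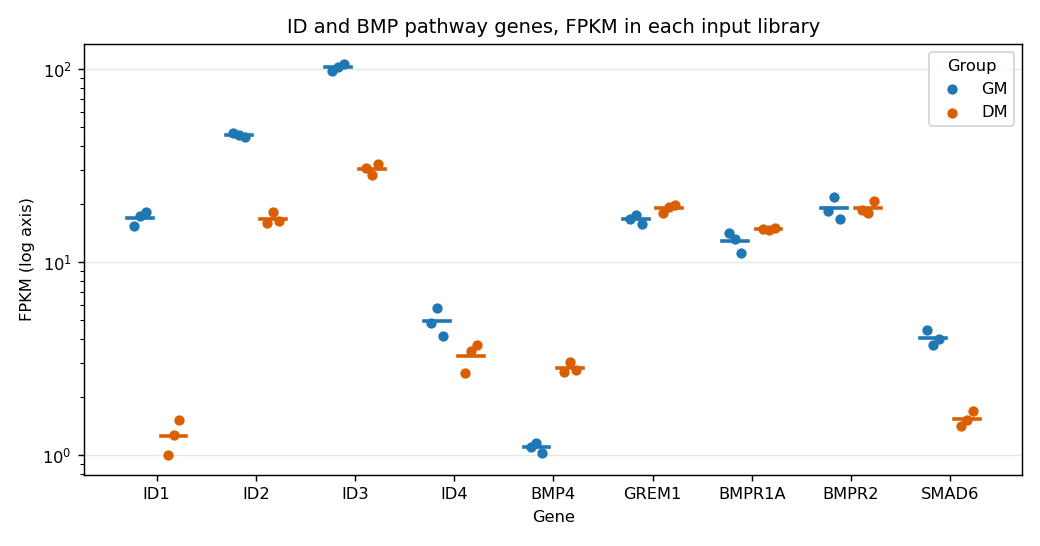
FPKM of the 9 members in each of the 6 input libraries, on a log axis. Points are libraries and horizontal bars are the means of 3 libraries. ID1, ID2, ID3 and SMAD6 sit lower in DM, BMP4 sits higher, and the points of BMPR2 overlap.

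BMP4, the only BMP ligand among the members, was weakly expressed. Its gene lies on chromosome 10 from 66518527 to 66525667 on the minus strand (ARS-UCD1.2, ENSBTAG00000003835). The level was 1.11, 1.15 and 1.02 FPKM in the GM libraries and 2.69, 3.03 and 2.75 FPKM in the DM libraries. Every DM library was above every GM library. The means were 1.09 ± 0.0648 and 2.82 ± 0.179 FPKM (SD, n = 3 each), 2.58-fold higher in DM, and the difference on the log2(FPKM + 1) scale was 0.87 ± 0.0725 (SE). BMP4 was the member of lowest level in GM, and in DM its range overlapped that of ID4.

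GREM1 encodes gremlin 1, a secreted protein that binds BMP ligands and keeps them from their receptors. It is on chromosome 10 as well, from 29964364 to 29978686 on the minus strand (ENSBTAG00000050495). The libraries gave 16.7, 17.6 and 15.8 FPKM in GM and 17.9, 19.2 and 19.8 FPKM in DM. The groups did not overlap, but the lowest DM library was close to the highest GM library. The log2(FPKM + 1) difference was 0.17 ± 0.0617 (SE), a 1.14-fold higher mean in DM, well inside the 1.5-fold limit. The level ratio of BMP4 to GREM1 was 0.0655 ± 0.000576 in GM and 0.149 ± 0.00919 in DM (SD, n = 3 each), so GREM1 mRNA exceeded BMP4 mRNA in every library on this length-corrected scale.

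The receptor genes held nearly the same level in both groups. BMPR1A (chromosome 28, 41486119 to 41544234, plus strand, ENSBTAG00000000231), the type I receptor, was at 14.2, 13.2 and 11.2 FPKM in GM and at 14.8, 14.7 and 14.9 FPKM in DM. The DM libraries were above all GM libraries and much closer together, with an SD of 0.140 FPKM against 1.55 FPKM in GM. Its log2(FPKM + 1) difference was 0.20 ± 0.0824 (SE). BMPR2 (chromosome 2, 90864689 to 91017391, plus strand, ENSBTAG00000006420), the type II receptor, gave 18.5, 21.8 and 16.8 FPKM in GM and 18.7, 17.9 and 20.7 FPKM in DM. These ranges overlapped, the means were 19.0 ± 2.53 and 19.1 ± 1.46 FPKM (SD, n = 3 each), and the log2(FPKM + 1) difference of 0.01 ± 0.0960 (SE) changed sign when single libraries were left out, between -0.07 and 0.11.

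SMAD6, an inhibitory SMAD that the pathway induces and that dampens its signal, lies on chromosome 10 from 13478777 to 13621037 on the plus strand (ENSBTAG00000000625). Its level was 4.46, 3.73 and 3.98 FPKM in GM and 1.42, 1.52 and 1.68 FPKM in DM. No DM library came near a GM library. The means were 4.06 ± 0.368 and 1.54 ± 0.131 FPKM (SD, n = 3 each), 2.63-fold lower in DM, with a log2(FPKM + 1) difference of -0.99 ± 0.0804 (SE).

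ID1 showed the widest gap of the 9 members. The gene is on chromosome 13 from 61179938 to 61182003 on the plus strand (ENSBTAG00000016169). The GM libraries held 15.3, 17.4 and 18.1 FPKM and the DM libraries 0.998, 1.27 and 1.52 FPKM. The means of 16.9 ± 1.45 and 1.26 ± 0.260 FPKM (SD, n = 3 each) were 13.4-fold apart, and the log2(FPKM + 1) difference was -2.99 ± 0.0996 (SE). Only 0.0813% of the tested genes, ID1 included, had a difference this low or lower. ID1 stood at or above 80.5% of the 18436 genes by its GM level and at or above 41.1% by its DM level, and in DM it was the lowest of the 9 members, with a range that overlapped that of SMAD6.

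ID2 and ID3 were the most abundant ID genes and differed by similar amounts. ID2 (chromosome 11, 88604880 to 88607401, minus strand, ENSBTAG00000021187) was at 46.6, 45.7 and 44.7 FPKM in GM and at 15.9, 18.1 and 16.2 FPKM in DM. ID3 (chromosome 2, 129296772 to 129298371, plus strand, ENSBTAG00000030425) was at 97.9, 102.2 and 106.7 FPKM in GM and at 30.7, 28.3 and 32.3 FPKM in DM. Both genes were far apart between the groups in all libraries. The GM mean was 2.73-fold the DM mean for ID2, with a log2(FPKM + 1) difference of -1.40 ± 0.0599 (SE). For ID3 the GM mean was 3.36-fold the DM mean, with a log2(FPKM + 1) difference of -1.72 ± 0.0620 (SE). In spite of this, ID3 was the member of highest level in both groups, at or above 96.8% of all genes in GM and 89.0% in DM.

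ID4 was the weakest of the ID genes in GM. It lies on chromosome 23 from 38099867 to 38101537 on the minus strand (ENSBTAG00000052562). The libraries gave 4.82, 5.78 and 4.15 FPKM in GM and 2.67, 3.44 and 3.70 FPKM in DM. The ranges did not overlap, but the gap between them was small next to the spread within each group. The means were 4.92 ± 0.820 and 3.27 ± 0.536 FPKM (SD, n = 3 each), 1.505-fold lower in DM. The log2(FPKM + 1) difference of -0.47 ± 0.125 (SE) was under the 1.5-fold limit. With a pseudocount of 0.1 the difference was -0.575, just under that limit.

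Across the 9 genes the order of levels in GM ran from ID3 and ID2 through BMPR2, ID1 and GREM1, whose neighbouring ranges overlapped, to BMPR1A, then ID4 and SMAD6, which overlapped, and BMP4. In DM it ran from ID3 through BMPR2, GREM1 and ID2, whose neighbouring ranges overlapped, to BMPR1A, then ID4 and BMP4, which overlapped, and last SMAD6 and ID1, which also overlapped.

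The summed level of the ID genes was 164.6, 171.0 and 173.6 FPKM in GM and 50.2, 51.1 and 53.8 FPKM in DM, a ratio of 3.28 between the means. The makeup of the sum also differed. ID1 made up 9.95 ± 0.588% of it in GM and 2.43 ± 0.419% in DM, while ID4 made up 2.90 ± 0.495% and 6.31 ± 0.864% (SD, n = 3 each). ID3 gave the largest share in both groups, 60.2 ± 1.08% and 58.9 ± 3.05%.

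The E protein genes TCF3, TCF4 and TCF12, whose products the ID proteins bind, summed to 106.5 ± 2.29 FPKM in GM and 98.0 ± 5.34 FPKM in DM, and none of them was called. The ratio of summed ID to summed E protein mRNA was 1.51, 1.63 and 1.65 in the GM libraries and 0.537, 0.492 and 0.557 in the DM libraries. ID mRNA therefore exceeded E protein mRNA in every GM library and fell short of it in every DM library. These are ratios of mRNA levels, and protein was not measured here.

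**Figure D2:**
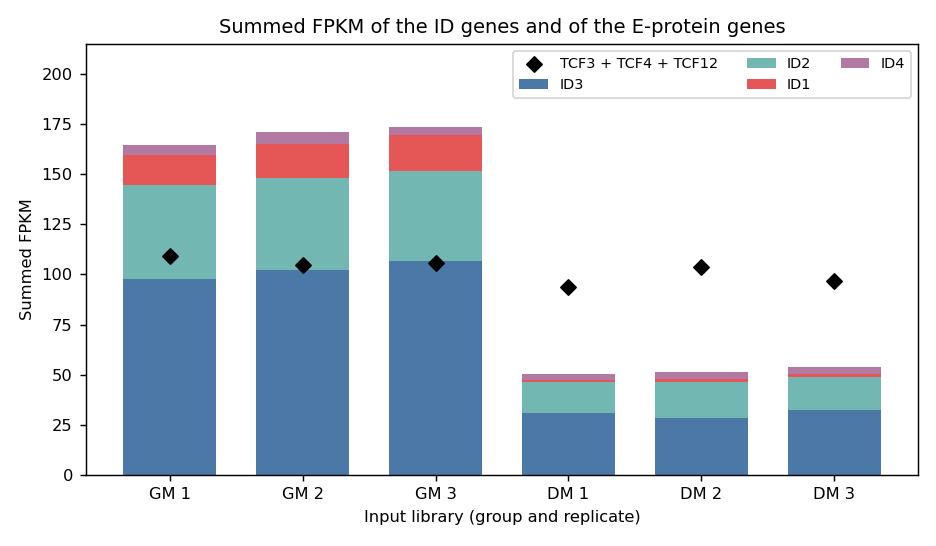
Summed FPKM of ID3, ID2, ID1 and ID4 (stacked bars) and of the E protein genes TCF3, TCF4 and TCF12 (diamonds) in each input library. The bars lie above the diamonds in GM and below them in DM.

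The myogenic partners of the E proteins did not move as 1 group. In the limma fit MYOD1 fell from 61.6 to 24.8 FPKM (log2(FPKM + 1) difference -1.28 ± 0.0624, here and below with its SE, adjusted p = 2.2e-06) and MYF5 from 11.8 to 2.25 FPKM (-1.97 ± 0.0848, adjusted p = 1.2e-06), whereas MYF6 rose from 1.73 to 3.89 FPKM (0.84 ± 0.105, adjusted p = 3.9e-04) and MYOG, at 196.7 and 243.4 FPKM, was under the 1.5-fold limit.

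Each ID gene was set beside the tested genes whose log2(FPKM + 1) values over the 6 input libraries, centred on their mean, lay at the smallest Euclidean distance from its own. For ID1 these were BIRC5, CDC20 and UBE2C, at distances of 0.221, 0.285 and 0.431 log2 units, all of them genes of mitosis. BIRC5 went from 27.9 to 2.56 FPKM and CDC20 from 13.3 to 0.768 FPKM. The genes closest to ID2 were SMURF2, a ubiquitin ligase that acts on SMADs and BMP receptors, at 0.0914, and the mitotic genes FOXM1 at 0.109 and AURKB at 0.122. VEGFC (0.159), KPNA2 (0.165) and AURKA (0.173) were closest to ID3, and CDKN2D (0.129), MAD2L1BP (0.150) and BTBD11 (0.177) to ID4. The distance mixes the size of the group difference with the level, since FOXM1, at 1.99 and 0.144 FPKM, has a far larger fold than ID2 for nearly the same log2(FPKM + 1) difference. These genes were picked for following the ID genes, so their direction is no further result, and the part of cell division in the ID levels was not tested.

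The rest of the pathway was counted over 58 other symbols, of which 49 were in the table and 37 passed the filter. The symbols include the 7 partners of the ID proteins named above. Of the 37, 14 were called (5 higher and 9 lower), beside 11.8% of all tested genes (4.89% higher and 6.88% lower), and 23 were not. The counts given below for each list come from few genes, and nothing is read from them. Without the 7 partners, 11 of 30 were called. The 37 genes were listed with results of these data known, and their median log2(FPKM + 1) difference was 0.02, beside -0.05 over all tested genes. Rescaling the libraries to TPM moved the median of all genes by 0.11 and the share of calls that were higher in DM from 41.6% to 55.5%, but no called member changed direction. On the TPM scale the log2 difference was -3.28 for ID1, -1.31 for ID2, -1.61 for ID3, -1.09 for SMAD6 and 1.2045 for BMP4. With a pseudocount of 0.1 the difference of BMP4 was 1.29.

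Beside BMP4, the ligand BMP6 rose from 0.476 to 1.93 FPKM (log2 difference 0.99 ± 0.0910, limma adjusted p = 6.9e-05), and BMP2 was at 2.40 and 2.19 FPKM. Next to the level receptors BMPR1A and BMPR2, the co-receptors HJV (0.70 ± 0.0592, adjusted p = 4.5e-05) and RGMA (0.64 ± 0.0880, adjusted p = 6.6e-04) rose and RGMB fell (-0.62 ± 0.0982, adjusted p = 0.0013) in the limma fit. These were 3 of 8 tested, 2 higher and 1 lower, beside 4.89% and 6.88% of all tested genes. The call of RGMA was lost without DM library 2 (log2 difference 0.58) and that of RGMB without GM library 3 (-0.53) or DM library 1 (-0.56), each then under the fold limit. ACVR1, another type I receptor, was at 32.8 and 40.1 FPKM and was not called.

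Among 9 tested SMADs and regulators, 2 were called lower and none higher in the limma fit, beside 6.88% and 4.89% of all tested genes. SMAD9 fell from 4.78 to 1.99 FPKM (log2 difference -0.95 ± 0.0806, adjusted p = 4.5e-05) and SMURF2 from 115.9 to 43.5 FPKM (-1.39 ± 0.0454, adjusted p = 3.4e-07). SMAD1, SMAD4, SMAD5 and SMURF1 were not called. With no fold threshold SMAD5 was called lower (-0.29 ± 0.0985) and SMURF1 higher (0.24 ± 0.0726). The other inhibitory SMAD, SMAD7, was at 4.10 and 6.06 FPKM and was not called (log2 difference 0.46 ± 0.106, limma adjusted p = 0.0085), though it was called higher after TPM scaling and with no fold threshold, while SMAD6 was lower in DM in every library.

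Secreted antagonists other than GREM1 went both ways, with 1 of 5 tested called higher and 2 lower, beside 4.89% and 6.88% of all tested genes. FST, encoding follistatin, fell from 37.1 to 7.36 FPKM (log2 difference -2.19 ± 0.0526, limma adjusted p = 2.0e-07), and NOG, encoding noggin, fell from 3.04 to 1.44 FPKM (-0.72 ± 0.104, limma adjusted p = 8.2e-04). CHRD, encoding chordin, rose from 2.30 to 6.17 FPKM (1.12 ± 0.0610, limma adjusted p = 3.9e-06). GREM1, at 16.7 FPKM in GM and 19.0 in DM, was far below FSTL1 (710 and 849.0 FPKM) and close to TWSG1 (17.7 and 17.6 FPKM), neither of them called.

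Of all tested genes, 6.88% were called lower and 4.89% higher. Of 7 tested BMP target genes other than the ID genes, 2 were called lower and none higher. These were ATOH8, from 4.94 to 1.71 FPKM (log2 difference -1.13 ± 0.0769, limma adjusted p = 1.3e-05), and HEY1, from 3.86 to 2.16 FPKM (-0.61 ± 0.0901, limma adjusted p = 9.1e-04), whose call was lost without GM library 2 (-0.53). The target SMAD7, described above, was at 4.10 and 6.06 FPKM and was not called. In SMAD7 and MSX2 every DM library lay above every GM library (21.1% of all tested genes). In ATOH8, HEY1 and RUNX2 every DM library lay below (33.0%). The targets MSX1, MSX2 and JUNB were not called, and RUNX2, at 21.9 and 14.5 FPKM, was just under the 1.5-fold limit on the log2(FPKM + 1) scale (-0.56 ± 0.0660). RUNX2 was called lower with a pseudocount of 0.1, with no fold threshold and without GM library 3. The osteoblast gene SP7, which made up nearly all of the osteoblast marker sum in GM, fell from 2.61 to 0.137 FPKM (limma adjusted p = 1.8e-06). The other markers of that list were under the filter on low values. BGLAP and IBSP were at 0 in all GM libraries and averaged 0.0327 and 0.0534 FPKM in DM. ALPL was at 0.0757 FPKM in GM and 0.0559 in DM.

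**Figure D3:**
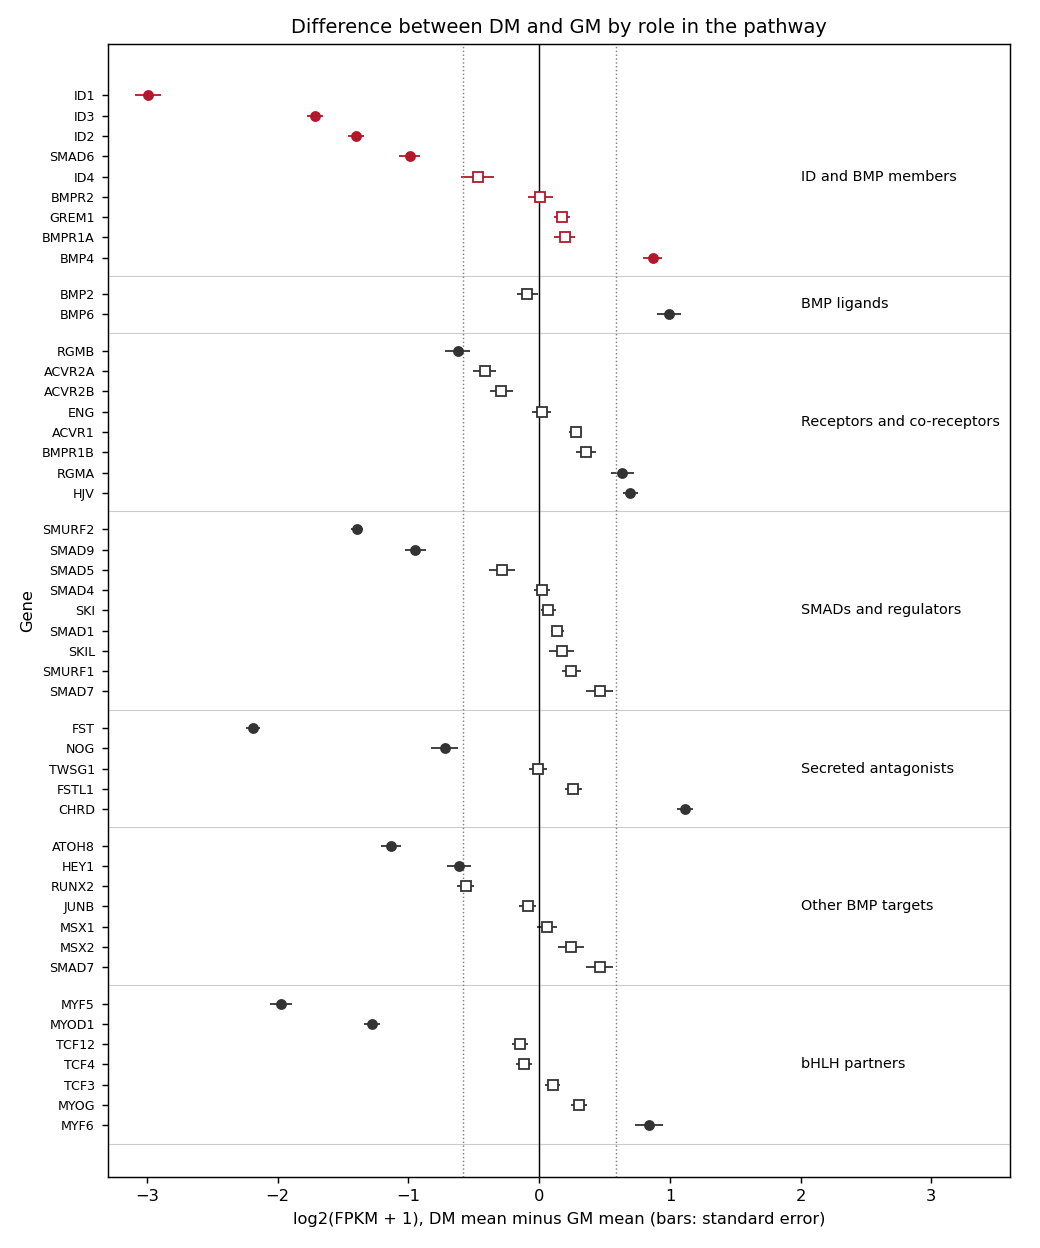
Difference between the DM and GM means of log2(FPKM + 1) for the 9 members (red) and the tested genes of 6 pathway lists (black). Bars are standard errors, filled circles were called, open squares were not, and dotted lines mark a 1.5-fold change. ID1 lies farthest to the left at -2.99, and SMAD7 is drawn in both of its lists.

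The m6A data came as 1 peak list per group, called on the pooled libraries, so each fold enrichment of IP over input is a single value with no replicate error. All 9 members had at least 1 peak in each list, adding up to 15 GM peaks and 17 DM peaks. The members averaged 1.96 to 66.4 FPKM, and of all genes within that range 73.7% had a GM peak and 81.1% a DM peak. Peaks annotated to the 3′ UTR made up 8 of the 15 and 8 of the 17, beside 42.6% and 45.3% of all peaks.

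The ID genes carried weak peaks. In GM, 4 of their 5 peaks had a fold enrichment below the list median of 3.27, and in DM all 5 were below the median of 3.38. For the other members 4 of 10 GM peaks and 5 of 12 DM peaks were below these medians. The ID genes span only 1600 to 2522 bases, a range that holds 380 genes averaging 0.5 FPKM or more. The median fold enrichment of their peaks was 3.20 over 387 peaks in GM and 3.59 over 386 in DM.

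ID1 had a single peak in its 3′ UTR in each list, at 61181435 to 61181674 with a fold enrichment of 1.96 in GM and at 61181524 to 61182003 with 2.89 in DM. The peaks differ in extent, since the shared 151 bases are 62.9% of the GM peak and 31.5% of the DM peak, and the ratio of 1.47 stayed under the 1.5 used as a limit. The DM value rests on an input level of 1.26 FPKM. ID2 had 1 peak annotated to its 5′ UTR, with 1.73 in GM and 1.72 in DM. That DM peak also held a block near the 3′ end of the gene, 88605206 to 88605523, which was not part of the GM peak. ID3 had 1 peak in the 3′ UTR in GM with 1.86 (129298042 to 129298192), and in DM 2 short peaks of 61 bases with 1.73 and 1.65, the second of them outside the GM peak.

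ID4 held the only ID peak above a list median. It lies in exon 1 at 38101362 to 38101537, had a fold enrichment of 4.90 with a false discovery rate of 0.0034 in GM, and had no counterpart in the DM list. Its 3′ UTR peak was at 1.85 in GM and 1.74 in DM.

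**Figure D4:**
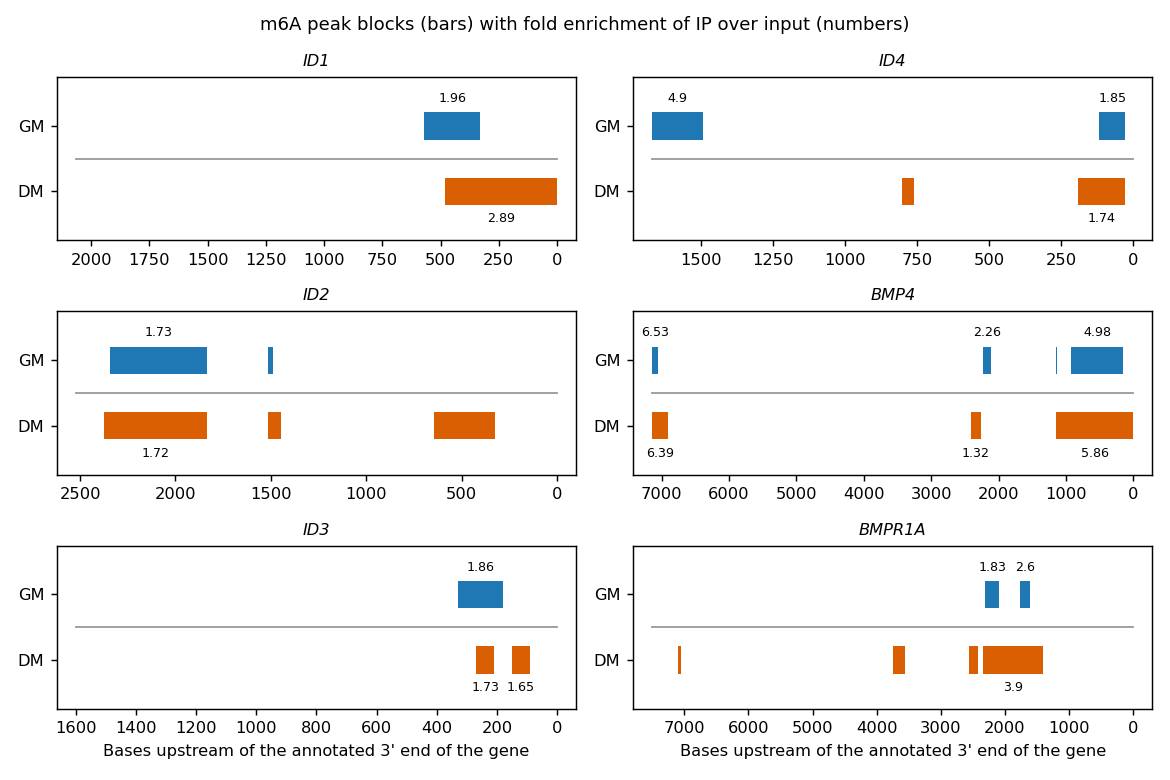
Exonic blocks of the m6A peaks of ID1, ID2, ID3, ID4, BMP4 and BMPR1A in the GM list (blue) and the DM list (orange), by distance in bases from the annotated 3′ end of the gene. Numbers are the fold enrichment of each peak, printed at its longest block, and for BMPR1A the stretch nearest the 3′ end is drawn. The exon 1 peak of ID4, with 4.90, is in the GM list alone.

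BMP4 had 3 peaks in each list. The peak at the 5′ UTR had a fold enrichment of 6.53 in GM, where its false discovery rate was 0.23, and 6.39 in DM. At the 3′ UTR the GM peak had 4.98 and the DM peak 5.86, and this DM peak also overlapped a small stretch of the GM peak assigned to exon 3 (2.26). A further exon 3 peak in DM, with 1.32, had a false discovery rate of 0.12.

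GREM1 had 1 peak, with 1140 exonic bases in GM and 1080 in DM, annotated to the 5′ UTR, with 2.64 in GM and 3.02 in DM. Its longer block, 29966132 to 29967090 in GM and 29966222 to 29967090 in DM, lay downstream of the short block near the 5′ end of the gene. The 3′ UTR of BMPR1A held a pair of GM peaks (1.83 and 2.60) with 362 exonic bases in all. DM had 1 peak with 3.90 that overlapped both, with 1288 exonic bases in 4 blocks. Only its last block, 41541899 to 41542827, covered the GM peaks, and the other blocks lay upstream. BMPR2 had 2 peaks in each list. The one annotated to the 5′ UTR was at 3.51 in GM and 3.32 in DM. The one annotated to the 3′ UTR was at 4.13 and 5.38, a ratio of 1.30 over nearly the same bases. Its longest block ran from 91007479 to 91008758, and it ended at 91010408 in GM and 91010438 in DM, short of the gene end at 91017391.

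SMAD6 had 2 peaks in GM and 5 in DM over a similar exonic length of 2262 and 2205 bases. The GM peaks had 3.58 (annotated to the 5′ UTR) and 5.65 (3′ UTR). The DM peaks that overlapped them had 3.97, 2.51, 1.90 and 4.44. A DM peak at the first bases of the gene, 13478777 to 13478955, had the highest value of any member, 11.7, with no GM peak there and a false discovery rate of 0.0078. This value covers 179 bases and rests on a SMAD6 input level of 1.54 FPKM in DM.

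**Figure D5:**
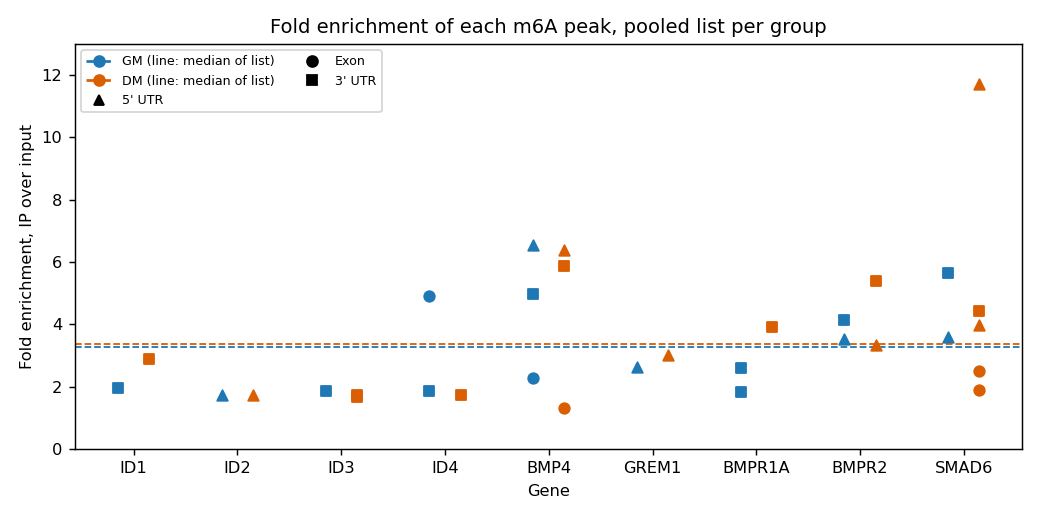
Fold enrichment of IP over input for every peak of the 9 members, with GM in blue and DM in orange. Triangles, circles and squares mark peaks annotated to the 5′ UTR, exons and the 3′ UTR, and dashed lines are the list medians of 3.27 (GM) and 3.38 (DM). The ID peaks lie below the lines except for ID4 at 4.90 in GM.

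Between the lists, 8 pairs of member peaks were formed, each of 1 GM and 1 DM peak that overlapped only each other. The peaks of BMPR1A and SMAD6 fell outside this rule, as did the BMP4 peaks at exon 3 and the 3′ UTR. BMPR1A had 1.83 and 2.60 in GM against 3.90 in DM, and BMP4 had 2.26 and 4.98 against 5.86. In SMAD6, 3.58 in GM stood against 3.97 and 2.51 in DM, and 5.65 against 1.90 and 4.44. None of these 8 pairs differed by more than 1.5-fold, beside 25.0% of all 10239 such pairs (14.2% higher and 10.8% lower in DM). The ratios of DM to GM ran from 0.930 (ID3) to 1.47 (ID1). ID1, ID2 and ID3, with mRNA levels between 2.73- and 13.4-fold lower in DM, had m6A enrichments within 1.5-fold of each other in paired peaks, with no replicate value to set against these ratios.

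In the other pathway genes, 34 such pairs were found, and 7 were more than 1.5-fold higher and 2 more than 1.5-fold lower in DM, 26.5% of them. BAMBI, a pseudoreceptor of the family, went from 6.20 to 19.2 and a 5′ UTR peak of SMAD1 from 3.81 to 14.9. BMP2, with 1.94 to 3.50 and 2.18 to 4.26, BMP3, with 9.80 to 18.1, NOG, with 1.88 to 3.33, and a 3′ UTR peak of SMAD1, with 1.87 to 2.85, were the other higher pairs. RUNX2, with 5.26 to 1.94, and SKI, with 3.32 to 1.99, were the lower pairs. In each of these 9 pairs the peaks differed in extent. The input levels of BAMBI and BMP3 were under 0.5 FPKM.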

How the data were processed

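The authors trimmed the reads of strand-specific libraries and mapped them to ARS-UCD1.2 using HISAT2. The deposited gene table holds FPKM made by the authors with StringTie for the 6 input libraries. Peaks were called by the authors with exomePeak once per group, over its pooled libraries, and annotated with ChIPseeker. The deposited fold enrichment is a linear ratio of IP to input signal, each deposited p-value is not adjusted, and the false discovery rate was taken from a deposited score column that holds its log10. The files used here hold no read counts or read totals, so no interval from depth is given, and edgeR, which the authors used, was not run. An FPKM value has an error only from 3 libraries per group, and a peak has none.

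Genes averaging 0.5 FPKM or more were fitted with limma 3.58.1 (R 4.3.3) on log2(FPKM + 1), using moderated variances with a trend, from the 6 input libraries and without covariates. On this scale the change of low genes is understated. Calls needed a Benjamini-Hochberg adjusted p under 0.05 and a fold change over 1.5. Peaks were paired in Python 3.11.15 with pandas 2.3.3 and numpy 2.4.6 by at least 1 shared exonic base on the same strand. A pair was kept only where neither peak overlapped a further peak of the other list. Figures were drawn with matplotlib 3.10.9. The scripts were tested on simulated data.

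Groups came from the sample titles. The members and all gene lists were chosen with earlier results of these data known. Named genes are the members, every called list gene, the tested partners of the ID proteins, the 3 nearest profiles of each ID gene, and list genes whose paired peaks differed by over 1.5-fold. Those named beyond this rule (ACVR1, ACVR2B, SMAD4, SMAD5, SMAD7, SMURF1, FSTL1, TWSG1, MSX1, MSX2 and JUNB) were chosen after their values were seen. So were the markers named from their lists. BMP2, SMAD1 and RUNX2 fall under the rule by their peaks, and their expression was added after the values were seen. Of the pathway list symbols, 9 had no entry in the table and were not analysed here, and neither were the markers KDR and PTPRC. Alternatives were the pseudocount, filter, scaling, replicate block, variance trend, thresholds, and each library left out.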

Additional observations from a re-analysis of the deposited data

How the results depend on the processing

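With a fold change over 2, calls dropped to 504 of all genes, 6 pathway list genes and 3 members (ID1, ID2 and ID3), and with no fold threshold they were 5268, 24 and 6, ID4 being the member gained. Over the settings that left out 1 library each, the counts ran from 1456 to 1505 for all genes, 13 to 14 for the pathway lists and 5 to 5 for the members, beside 1448, 14 and 5 with all libraries. TPM scaling gave 1729 calls, 960 higher and 769 lower, against 602 and 846. Size factors lost the calls of HEY1 and RGMB, TPM scaling that of RGMB, and a mean of at least 1 FPKM that of RGMA. SMAD7 was gained under TPM scaling, and RUNX2 and ACVR2B with a pseudocount of 0.1. RGMB was lost without GM library 3 or DM library 1, RGMA without DM library 2 and HEY1 without GM library 2. No call among these genes changed direction in any setting run. With the replicate number as a block, the calls were 1459, 14 and 5. Same-numbered GM and DM libraries deviated from their group means with correlations of -0.08, -0.12 and -0.21 across genes, and no library correlated best with its own number, so the numbers were not taken to pair the samples. Without the list of partners of the ID proteins, an alternative chosen after seeing the data, 11 of 30 pathway genes were called. At a fold enrichment of at least 2, 6 of the 9 members had a peak in each list, with ID4 but not ID1 in GM and ID1 but not ID4 in DM. With an overlap of 50% of both peaks, 7 member pairs were formed, 2 of them in SMAD6 and none in ID1, ID3 or ID4, and with a false discovery rate under 0.001 there were 7, and in neither case did a pair differ by more than 1.5-fold.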
